A study of Homo sapiens with 6 samples.

Results

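The liver X receptors (LXRs) and a set of genes that handle lipoproteins were followed in cells of the line 83 (a SACC cell, per the submitters) with and without overexpression of ApoD. The 10 genes were chosen by name: the LXR genes NR1H2 and NR1H3, and MYLIP, LPCAT3, PLTP, SCARB1, APOE, APOC1, APOL1 and APOL2. All 10 were found among the 21676 gene symbols of the count table. SACC is a common short form of adenoid cystic carcinoma of the salivary gland. The labels give 3 control libraries and 3 libraries with ApoD overexpression, all from total RNA of the same cell line, and do not say what the control cells received, how the gene was introduced or whether the cells were 1 clone. They number the libraries of each group without saying that these came from separate cultures, so a p-value here reflects the spread among libraries alone, and that spread may be technical.

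LXRs are nuclear receptors that bind oxysterols and other sterols, and they act as heterodimers with retinoid X receptors (RXRs). NR1H2 encodes LXR beta, found in most tissues, and NR1H3 encodes LXR alpha, best known from liver, fat, gut and macrophages. Their target genes move cholesterol out of the cell, lower lipoprotein uptake, supply lipid carriers and promote fatty acid synthesis. ApoD, the protein overexpressed here, is itself a lipid-binding secreted protein of the lipocalin family.

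Promoter sequences of the 2 LXR genes and of MYLIP, a textbook LXR target, are shown so that the start regions of sensor and target can be set side by side. RefSeq windows (GRCh38.p14) were matched for 7 of the 10 genes; SCARB1, APOL1 and APOL2 had no match. The 250 bases before a start are given on the strand of the gene, 5′ to 3′. For NR1H3, which has 4 such windows, the one that holds a nuclear receptor hexamer is printed. Capitals mark the hexamer AGGTCA and the GC box GGGCGG, each on either strand.
NR1H2, chr19:50376207-50376456, plus strand: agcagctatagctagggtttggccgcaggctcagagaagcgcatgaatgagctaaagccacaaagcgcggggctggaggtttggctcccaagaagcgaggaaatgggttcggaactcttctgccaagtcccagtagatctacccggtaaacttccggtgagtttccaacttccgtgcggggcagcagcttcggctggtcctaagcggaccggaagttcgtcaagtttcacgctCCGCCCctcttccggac
NR1H3, chr11:47248050-47248299, plus strand: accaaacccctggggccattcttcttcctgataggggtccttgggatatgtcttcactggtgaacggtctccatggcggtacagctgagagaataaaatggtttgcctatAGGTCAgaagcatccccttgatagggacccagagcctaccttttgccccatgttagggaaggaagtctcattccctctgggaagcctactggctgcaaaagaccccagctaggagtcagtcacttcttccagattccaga
MYLIP, chr6:16128836-16129085, plus strand: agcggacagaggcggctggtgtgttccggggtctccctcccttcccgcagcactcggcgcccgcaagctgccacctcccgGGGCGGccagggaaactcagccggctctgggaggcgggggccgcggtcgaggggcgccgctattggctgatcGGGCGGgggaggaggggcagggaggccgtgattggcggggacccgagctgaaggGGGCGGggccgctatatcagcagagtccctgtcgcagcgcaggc

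The hexamer AGGTCA, the core that LXR and many other nuclear receptors bind, was found in a window of NR1H3, 140 bases before the start, and in no window of the other 6 matched genes. It was present in 12.1% of 35116 windows of the same length. The direct repeat that LXR and RXR bind, searched on both strands as GGTCA followed after 5 bases by GGTCA, was in no window of the 7 genes and in 0.0769% of all windows. A GC box stood in at least 1 window of NR1H2, NR1H3, MYLIP, LPCAT3, PLTP, APOE and APOC1, and in 42.6% of all windows. NR1H3, PLTP and APOE had more than 1 window each, and some windows of NR1H3 and APOE held no GC box. The percentages are shares of windows, so they cannot be set directly against numbers of genes. The printed window of MYLIP holds 3 GC boxes, and that of NR1H2 holds 1. An interferon element, searched as GAAA followed after 2 bases by GAAA, a sterol element, searched as TCACNCCAC, and the E-box CACGTG were found in no window of the 7 genes and in 3.02%, 0.883% and 6.34% of all windows. These matches describe letters in a short window only.

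Of the 10 genes, SCARB1 and APOL2 rose with ApoD overexpression and none fell. NR1H2, NR1H3, MYLIP, LPCAT3, PLTP, APOC1 and APOL1 were tested and did not pass, and APOE was too low to test. Levels below are CPM (counts per 1000000) scaled with the trimmed mean of M-values method (TMM), and changes are log2 fold changes of ApoD overexpression over control ± SE, tested with edgeR's quasi-likelihood test at an adjusted p of 0.05. Across all 14629 tested genes 48.8% passed, 24.2% higher and 24.6% lower. The 2 of 9 tested members that passed make up 22.2%. The libraries of the 2 groups did not overlap for 4 of the 9 (2 above, 2 below the controls), and for 58.7% of all tested genes. The median change of the 9 was −0.04, beside −0.02 over all tested genes.

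Totals ran from 37542568 to 40416964 counts per library. APOD, the overexpressed gene, was counted 9, 8 and 2 times in control libraries, against 628, 528 and 625 times in those with ApoD overexpression. Changes varied with abundance over all genes. Tested genes with a mean count of 20 to 100 had a median change of −0.60, those with 500 to 2000 counts 0.04 and those with 2000 or more 0.16. With library totals in place of TMM the median over all tested genes was −0.13, and 2580 genes were called higher and 4435 lower, against 3539 and 3601. All 10 epithelial markers were tested, 6 fell and 1 rose, with a median change of −0.67. Over all tested genes 24.6% fell and 24.2% rose. KRT7 rose by 0.48 ± 0.14 (edgeR adjusted p = 0.0154), and KRT5 and KRT18 did not pass. KRT19 fell by 2.46 ± 0.36, KRT14 by 1.75 ± 0.21 and CDH1, the epithelial cadherin, by 1.29 ± 0.11 on the log2 scale, while KRT8, at 1255 ± 323 CPM in controls and 1621 ± 139 CPM with ApoD overexpression (SD, n = 3), did not pass. Their part in the levels of the 10 genes was not tested. Of 7 markers of adenoid cystic carcinoma, 4 were tested. ACTA2 fell from 16.2 ± 4.55 to 7.84 ± 0.375 CPM (SD, n = 3; −1.04 ± 0.19 SE; edgeR adjusted p = 0.000916), and MYB, MYBL1 and NFIB did not pass. CNN1 had 1 to 11 counts per library, and KIT and SOX10 were not among the gene symbols of the count table.

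**Figure D1:**
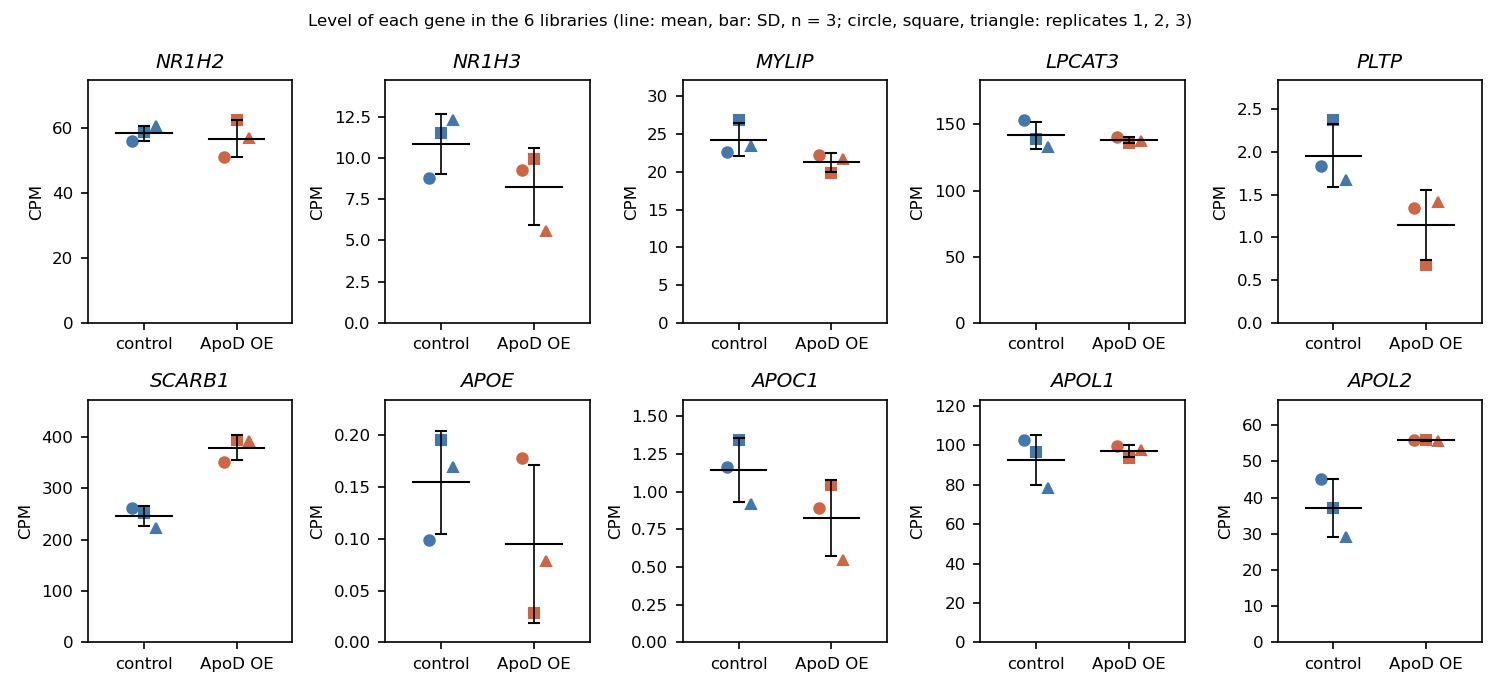
CPM of each of the 10 genes in the 3 control and the 3 ApoD overexpression libraries (ApoD OE), with the mean as a line and the SD as a bar; each y axis starts at 0. The 3 ApoD overexpression libraries lie above all controls for SCARB1 (351 to 394 CPM) and APOL2 (55.7 to 55.9 CPM), and below all controls for MYLIP and PLTP.

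Of the LXR genes, NR1H2 was the more abundant. Its level was 56.0, 58.97 and 60.6 CPM in the controls and 51.1, 62.5 and 57.2 CPM with ApoD overexpression. The groups overlapped, and both the lowest and the highest library belonged to ApoD overexpression. The change was −0.04 ± 0.10, with a 95% interval of −0.26 to 0.18 (edgeR adjusted p = 0.754). NR1H3 stood at 8.78, 11.5 and 12.3 CPM in the controls and at 9.27, 9.91 and 5.59 CPM with ApoD overexpression. Control replicate 1 lay among the ApoD overexpression libraries, and ApoD overexpression replicate 3 was the lowest of all. The change of NR1H3 was −0.39 ± 0.21, with a 95% interval of −0.86 to 0.07 (edgeR adjusted p = 0.144). Without control replicate 1 NR1H3 passed as lower, at −0.52 (edgeR adjusted p = 0.0469), and without ApoD overexpression replicate 3 its change was −0.16. Over the alternatives, the test against a 1.5-fold change aside, the adjusted p of NR1H3 ran from 0.0469 to 0.536.

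Per length, the LXR alpha transcript was a small part of the LXR total in every library. On the FPKM scale, which divides by gene length and library size, NR1H2 stood at 25.2 ± 1.51 in controls (SD, n = 3) and at 22.6 ± 1.93 in the ApoD overexpression libraries. NR1H3 stood at 3.95 ± 0.737 and 2.76 ± 0.777 FPKM. The ratio of NR1H3 to NR1H2, which does not depend on how libraries are scaled, was 0.132, 0.164 and 0.171 in the controls and 0.153, 0.134 and 0.0824 with ApoD overexpression. The groups overlapped (difference in mean log2 ratio −0.38, exact two-sided permutation p = 0.3, n = 3 in each group). With 3 libraries against 3 the smallest p this test allows is 0.1. Adjusted over the 3 ratios tested here it was 0.45.

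The tested genes whose level followed NR1H2 most closely over the 6 libraries were CRY2, VPS26B and SLC35E4. Their root mean square differences from it were 0.023, 0.029 and 0.035 log2 units, each gene centred on its own mean. Of all tested genes 578 lay within 0.1 of NR1H2 on this measure. For NR1H3 the closest were GXYLT2, ST3GAL6 and LOC112694756, at 0.10, 0.13 and 0.13 log2 units.

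The partners through which LXRs bind DNA and act on transcription were read next. Of 15 listed RXRs, corepressors and coactivators 14 were tested, 3 rose, 3 fell and 8 did not pass, which is 21.4% in each direction beside 24.2% higher and 24.6% lower over all tested genes. RXRA and RXRB, the RXRs that were tested, had changes of −0.15 ± 0.09 and −0.17 ± 0.10 and did not pass (edgeR adjusted p = 0.176 and 0.171). With library totals both passed as lower, at −0.26 and −0.28 (edgeR adjusted p = 0.0141 and 0.0256), as they did with the abundance trend removed and on FPKM. TBL1X, a corepressor subunit, fell from 12.9 ± 0.765 to 4.57 ± 0.802 CPM (SD, n = 3; −1.49 ± 0.17 SE). The coregulator NRIP1 fell from 27.9 ± 4.12 to 13.9 ± 2.78 CPM (SD, n = 3), and the coactivator NCOA3 fell by 0.96 ± 0.12 on the log2 scale. GPS2, MED1 and EP300 rose, by 0.95 ± 0.11, 0.62 ± 0.12 and 0.39 ± 0.11.

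Genes that make or clear sterol ligands of LXR were measured next. Of 11 listed, 7 were tested, 1 rose and 2 fell. That is 14.3% higher and 28.6% lower, beside 24.2% and 24.6% over all tested genes. SULT2B1, which sulphates cholesterol and oxysterols, had 73, 111 and 146 counts in control libraries and 6, 11 and 2 with ApoD overexpression. The groups were far apart, and the change was −3.96 ± 0.51 (edgeR adjusted p = 7.8e-05). HSD3B7, a bile acid synthesis enzyme, fell by 0.75 ± 0.17, and CYP11A1, which cleaves the cholesterol side chain, rose by 0.81 ± 0.24.

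SCARB1, which encodes the high density lipoprotein receptor SR-BI, had the largest number of counts of the 10 genes. It had 10524, 10311 and 9255 counts in control libraries and 13840, 14002 and 15013 with ApoD overexpression, which is 261, 252 and 224 against 351, 394 and 392 CPM. All 3 ApoD overexpression libraries lay above all controls, as they did for 29% of tested genes. The change was 0.63 ± 0.09, a 1.55-fold rise (95% interval of the log2 value 0.42 to 0.83; edgeR adjusted p = 0.00021). SCARB1 passed under 15 of 16 alternatives, with an adjusted p of 1.55e-08 to 0.00423; against a 1.5-fold change it did not (0.496). With the abundance trend removed the change was 0.43. Among tested genes with a mean count of 2000 or more, the range of SCARB1, 40.7% were called higher and 15.6% lower.

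MYLIP encodes IDOL, a ubiquitin ligase that marks lipoprotein receptors, VLDLR and LRP8 among them, for breakdown. It stood at 22.6, 26.8 and 23.5 CPM in the controls and at 22.3, 19.8 and 21.7 CPM with ApoD overexpression. The groups did not overlap, but control replicate 1 and ApoD overexpression replicate 1 were close. Groups also stood apart, in this direction, for 29.7% of tested genes. The change was −0.19 ± 0.11 and did not pass (edgeR adjusted p = 0.182). MYLIP passed as lower with library totals, at −0.31 (edgeR adjusted p = 0.0453), and on both filtered FPKM scales, the lowest adjusted p being 0.037 and the highest over the alternatives, that against a 1.5-fold change aside, 0.529.

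VLDLR and LRP8, receptors that IDOL acts on, were read beside MYLIP. LRP8 had a change of 0.11 ± 0.09 and did not pass, and its direction was the opposite with library totals and with the trend removed. VLDLR was low in all libraries, with 1.51, 3.91 and 3.43 CPM in the controls and 0.686, 0.225 and 0.861 CPM with ApoD overexpression, and it fell by 2.30 ± 0.48 (edgeR adjusted p = 0.00179).

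Other lipoprotein receptors and their adaptors were read beside SCARB1. Of 18 listed genes 16 were tested, 10 fell and 2 rose, with a median change of −0.66 beside −0.02 over all tested genes. That is 62.5% lower and 12.5% higher, beside 24.6% and 24.2% over all tested genes. LRP1, a large endocytic receptor for lipoproteins and proteases, fell from 337 ± 53.2 to 123 ± 13.9 CPM (SD, n = 3; −1.45 ± 0.12 SE). CD36, a scavenger receptor of the same family as SCARB1, had a change of −1.60 ± 0.53 at under 1 CPM. That call was lost without control replicate 2 (edgeR adjusted p = 0.0999) or 3 (0.117), without any 1 of the ApoD overexpression libraries (0.0619 to 0.0778), with the abundance trend removed (0.196) and with the replicate number as a block (0.0572). The genes that rose, HDLBP and LRPAP1, by 0.29 each, were picked out after their values were seen, and neither passed with library totals, the abundance trend removed, the replicate block or FPKM, nor without control replicate 2 or 3 or ApoD overexpression replicate 3.

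**Figure D2:**
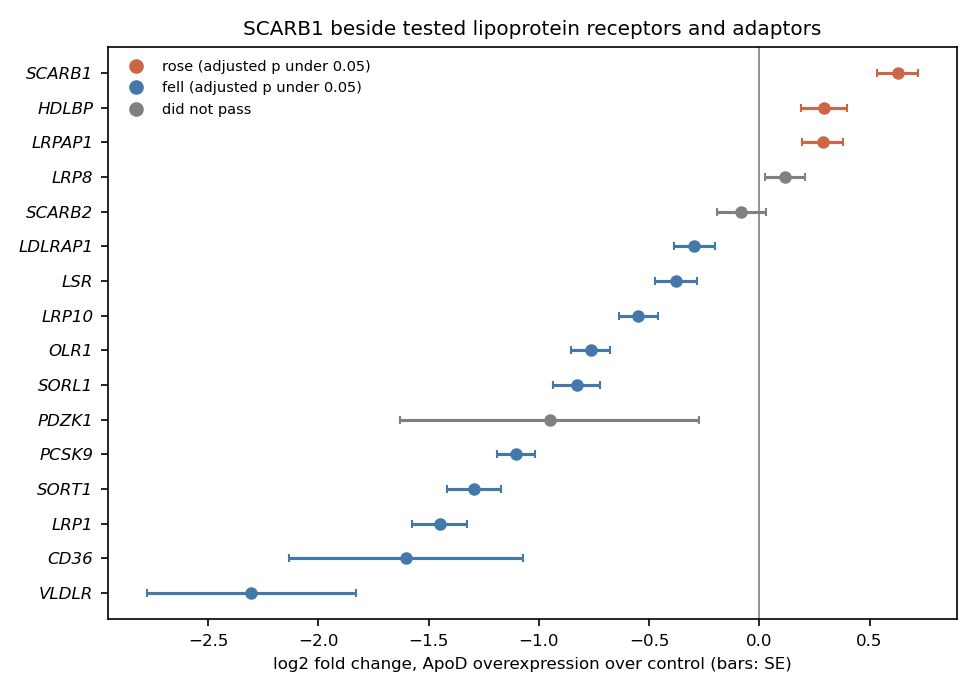
Log2 fold changes with SE of SCARB1 and of 15 of the 16 tested lipoprotein receptors and adaptors, ordered from the highest to the lowest and coloured by call. SCARB1 is at 0.63, the highest of those drawn, and VLDLR at −2.30 the lowest. LRP8 lies near 0.

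Per length, SCARB1 stood at 56.7 ± 3.34 FPKM in control libraries and at 80.8 ± 4.12 FPKM in those with ApoD overexpression (SD, n = 3). SCARB1 was above 93.8% of tested genes by mean FPKM.

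LPCAT3 encodes the acyltransferase that puts polyunsaturated chains such as arachidonate into membrane phospholipids. It had 153, 139 and 133 CPM in the controls and 141, 136 and 138 CPM with ApoD overexpression. The ApoD overexpression libraries lay within the range of the controls. The change was −0.04 ± 0.09, with a 95% interval of −0.23 to 0.16 (edgeR adjusted p = 0.762). With the abundance trend removed LPCAT3 was called lower, at −0.22 (edgeR adjusted p = 0.0469). In the GENCODE 29 transcripts 53% of the 50-base words of LPCAT3 also occur in transcripts of EMG1, which is annotated on the opposite strand. EMG1, which acts in ribosome assembly and was chosen with its value in view, rose by 0.87 ± 0.11. Whether the counting used strand is not given in the sources used here, and the part of this overlap in the LPCAT3 count was not tested.

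Other enzymes of phospholipid remodelling and proteins of lipid transfer were read beside LPCAT3. Of 17 listed genes 14 were tested, 6 fell and 1 rose, with a median of −0.09. That is 42.9% lower and 7.14% higher, beside 24.6% and 24.2% over all tested genes. The acyltransferases MBOAT2 and MBOAT1 fell by 0.79 ± 0.15 and 0.68 ± 0.10. LCAT, which esterifies cholesterol in high density lipoprotein, had a change of −1.07 ± 0.41 at under 2 CPM (edgeR adjusted p = 0.0461), and that call was lost with the replicate block (0.0601), with the abundance trend removed (0.281), without control replicate 2 (0.154) or 3 (0.0933) and without ApoD overexpression replicate 2 (0.118) or 3 (0.0808). LPCAT1, picked out after its value was seen, rose by 0.23 ± 0.09. It did not pass with DESeq2's size factors, library totals, the abundance trend removed, no filter on low counts, the replicate block or FPKM. Nor did it pass against a 1.5-fold change, with any 1 control library left out, or with ApoD overexpression replicate 2 or 3 left out.

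PLTP, which moves phospholipids between lipoproteins, was a low-count gene. It had 74, 97 and 69 counts in control libraries and 53, 24 and 54 with ApoD overexpression, and the highest ApoD overexpression library was below the lowest control. The change was −0.77 ± 0.35 and did not pass (edgeR adjusted p = 0.0886; 0.0605 to 0.552 over the alternatives other than that against a 1.5-fold change). With the abundance trend removed it was −0.27. From the group totals of 240 and 131 counts the ratio was 0.592, with a 95% counting interval of 0.474 to 0.735 that covers counting error only. In this range of 20 to 100 mean counts 33.6% of tested genes were called lower and 4.58% higher.

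APOE, a ligand of several lipoprotein receptors, was near the limit of detection. It had 4, 8 and 7 counts in control libraries and 7, 1 and 3 with ApoD overexpression. The groups overlapped, and from totals of 19 and 11 counts the ratio was 0.628, with a 95% interval of 0.270 to 1.39 that covers counting error only. With no filter on low counts the change of APOE was −0.67 ± 1.19 (edgeR adjusted p = 0.69). APOC1, a small apolipoprotein whose gene neighbours APOE on chromosome 19 (RefSeq, GRCh38.p14), had 47, 55 and 38 counts in control libraries and 35, 37 and 21 with ApoD overexpression. In CPM these were 1.17, 1.34 and 0.918 against 0.889, 1.04 and 0.548, and the groups overlapped because control replicate 3 lay below ApoD overexpression replicate 2. The change was −0.47 ± 0.39 (edgeR adjusted p = 0.351), and with the abundance trend removed it was 0.11. In GENCODE 29, 36.2% of the 50-base words of APOC1 also occur in other transcripts, mostly of AC011481.3 and of the pseudogene APOC1P1. How shared reads were counted is not given in the sources used here, and the part of this overlap in the APOC1 count was not tested.

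APOC1 exceeded APOE per length in each library. The ratio of APOC1 to APOE in FPKM was 20.1, 11.8 and 9.30 in the controls and 8.56, 63.4 and 11.99 with ApoD overexpression. The value of 63.4 rests on a single APOE count. The difference in mean log2 ratio was 0.52 (exact two-sided permutation p = 0.8, n = 3 in each group; 0.8 adjusted over the 3 ratios), and without ApoD overexpression replicate 2 it was −0.36. With ApoD overexpression APOD itself stood at 17.5 ± 1.03 FPKM and APOE at 0.065 ± 0.053 FPKM (SD, n = 3).

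Macrophages and hepatocytes are the cells best known for APOE, APOC1 and LXR alpha, so their markers were read beside these genes. Of 12 macrophage and leukocyte markers 2 were tested. CD68, a lysosomal protein also made outside the blood lineage, rose by 0.57 ± 0.21 (edgeR adjusted p = 0.0384), a call lost with library totals (0.126), with the abundance trend removed (0.0576), on FPKM, and without control replicate 2 (0.0561) or ApoD overexpression replicate 2 (0.104), and CSF1R did not pass. PTPRC had 1, 12 and 0 counts in control libraries and 0 in each ApoD overexpression library, and LYZ and CD163 had 4 or fewer counts in each library. The summed level of the list was 22.1 to 37.0 CPM in the controls and 40.8 to 43.1 CPM with ApoD overexpression. Most of this sum was CD68, at 15.4, 28.2 and 32.7 CPM in the controls and 36.6, 38.5 and 37.8 CPM with ApoD overexpression. CSF1R had a change in the other direction, of −0.50 ± 0.21. Of 7 hepatocyte markers only SERPINA1 was tested and did not pass, ALB had 1 count in all, and their sum was 1.02 to 4.35 CPM in the controls and 1.21 to 1.72 CPM with ApoD overexpression. Endothelial markers summed to 8.11 to 13.4 CPM in the controls and 1.35 to 2.30 CPM with ApoD overexpression. Fibroblast and adipocyte markers summed to 27.3 to 33.0 CPM in the controls and 9.996 to 13.99 CPM with ApoD overexpression. In these lists 3 of 3 and 2 of 3 tested genes fell, beside 24.6% of all tested genes. CDH5, COL3A1 and PLIN1 passed the filter on low counts through the controls alone. With ApoD overexpression CDH5 had 1, 0 and 0 counts, COL3A1 6, 4 and 4, and PLIN1 7, 5 and 5. A gene kept that way could hardly be called higher, so the numbers that fell say little about these lists. Most of the fibroblast sum was COL1A1, at 24.0, 29.4 and 25.2 CPM in the controls. COL3A1 fell by 4.52 ± 0.48 on the log2 scale, from 161, 128 and 67 counts in the controls. PLIN1 had 14, 18 and 16 counts there and did not pass. COL1A2, DCN and LUM had 0 or 1 counts in each library. The part of all these markers in the levels of the 10 genes was not tested. All libraries came from the same cell line, and which cells in it made these transcripts was not tested. In bulk samples fewer cells of a type and less RNA per cell cannot be told apart.

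APOL1 is secreted and travels on high density lipoprotein, and APOL2 stays inside the cell; both belong to an interferon-inducible family and lie next to each other on chromosome 22 (RefSeq, GRCh38.p14). APOL2 had 1822, 1516 and 1210 counts in control libraries and 2201, 1983 and 2133 with ApoD overexpression, or 45.2, 37.0 and 29.2 against 55.9, 55.8 and 55.7 CPM. The controls were spread widely, the ApoD overexpression libraries hardly at all, and the groups did not overlap. All ApoD overexpression libraries lay above all controls for 29% of tested genes too. Among tested genes with a mean count of 500 to 2000, the range of APOL2, 28.1% were called higher and 24.2% lower. APOL2 rose from 37.1 ± 7.97 to 55.8 ± 0.117 CPM (SD, n = 3; 0.59 ± 0.14 SE, 95% interval 0.29 to 0.88; edgeR adjusted p = 0.00373). It passed under 15 of 16 alternatives, at adjusted p of 3.44e-05 to 0.0484, and did not pass against a 1.5-fold change (0.743).

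APOL1 had 103, 96.7 and 78.3 CPM in the controls and 99.8, 93.9 and 97.6 CPM with ApoD overexpression. The ApoD overexpression libraries lay inside the range of the controls, where replicate 3 was the lowest for both APOL genes. The change was 0.07 ± 0.11, with a 95% interval of −0.16 to 0.30 (edgeR adjusted p = 0.624), while library totals gave −0.05 and removal of the abundance trend gave −0.09. In GENCODE 29, 4.22% of the 50-base words of APOL1 and 2.23% of those of APOL2 occur in other genes.

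The balance between the pair was read within each library. Per length, the ratio of APOL2 to APOL1 was 0.386, 0.336 and 0.328 in the controls and 0.492, 0.522 and 0.501 with ApoD overexpression. All 3 ApoD overexpression libraries were above all controls. The mean ratio was 0.350 ± 0.0315 in controls and 0.505 ± 0.0157 with ApoD overexpression (n = 3, SD; difference in mean log2 ratio 0.53). The exact two-sided permutation p was 0.1, the smallest that 3 against 3 allows, and 0.3 adjusted over the 3 ratios, so the test could not reach 0.05 in this design. APOL1 was the more abundant of the pair, at 28.7 ± 1.31 FPKM against 14.5 ± 0.225 FPKM for APOL2 with ApoD overexpression.

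**Figure D3:**
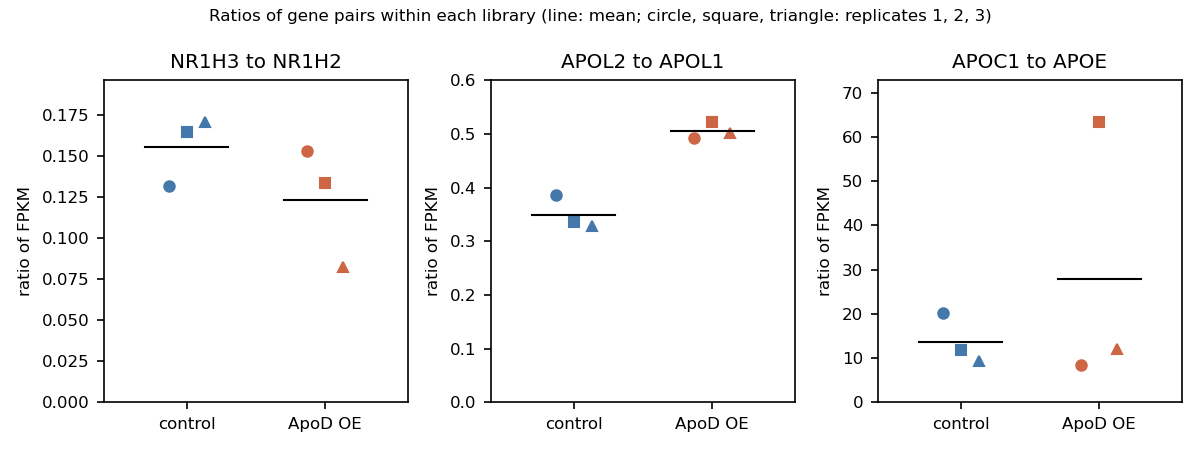
Ratio of FPKM within each library for NR1H3 to NR1H2, APOL2 to APOL1 and APOC1 to APOE, with the group mean as a line. The groups are apart for APOL2 to APOL1, at 0.328 to 0.386 in controls and 0.492 to 0.522 with ApoD overexpression, and overlap for the other pairs.

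Other members of the APOL family and interferon-stimulated genes were read beside them. APOL6 had a change of 0.21 ± 0.11 and APOL3 of −0.09 ± 0.15, and neither passed (edgeR adjusted p = 0.117 and 0.642). Of 14 interferon-stimulated genes, all tested, 3 rose and 7 fell, with a median of −0.17. That is 21.4% higher and 50% lower, beside 24.2% and 24.6% over all tested genes. IFIT1 and IFIT3, antiviral RNA-binding proteins, rose by 1.37 ± 0.19 and 1.33 ± 0.23. IFITM1, a membrane protein that blocks virus entry, fell by 1.64 ± 0.20. Of 16 other listed apolipoproteins only APOL3, APOL6, APOM and CLU were tested. CLU, which encodes clusterin, also called apolipoprotein J, fell from 293 ± 22.7 to 146 ± 1.17 CPM (SD, n = 3; −0.999 ± 0.09 SE; edgeR adjusted p = 6.9e-06).

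Further LXR target genes, outside the 10, were lower or did not pass. Of 16 listed genes 11 were tested, 5 fell and 0 rose, with a median of −0.31. That is 45.5% lower and 0% higher, beside 24.6% and 24.2% over all tested genes. ABCG1, which loads cholesterol onto high density lipoprotein, had 402, 655 and 828 counts in control libraries and 372, 275 and 262 with ApoD overexpression. Its groups were just apart in counts and in CPM, with control replicate 1 close to ApoD overexpression replicate 1, and it fell by 0.94 ± 0.22 (edgeR adjusted p = 0.00452; it did not pass on unfiltered FPKM, 0.0691, or against a 1.5-fold change, 0.123). ABCA1, the cholesterol exporter usually read together with it, had 9.32, 14.2 and 15.6 against 15.4, 8.98 and 14.1 CPM, which overlapped, and a change of −0.02 ± 0.22 (edgeR adjusted p = 0.947). SREBF1, the LXR target that switches on fatty acid synthesis, fell from 335 ± 30.6 to 246 ± 20.9 CPM (SD, n = 3; −0.45 ± 0.10 SE; edgeR adjusted p = 0.00299). MLXIPL, a glucose-responsive transcription factor, fell by 1.88 ± 0.17. MERTK, a receptor for dying cells, had 12, 15 and 10 counts in control libraries and 3, 2 and 4 with ApoD overexpression, and its call (edgeR adjusted p = 0.0364) was lost whenever any 1 library was left out (0.0697 to 0.122), with the replicate block (0.0882) and by DESeq2 (0.114).

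**Figure D4:**
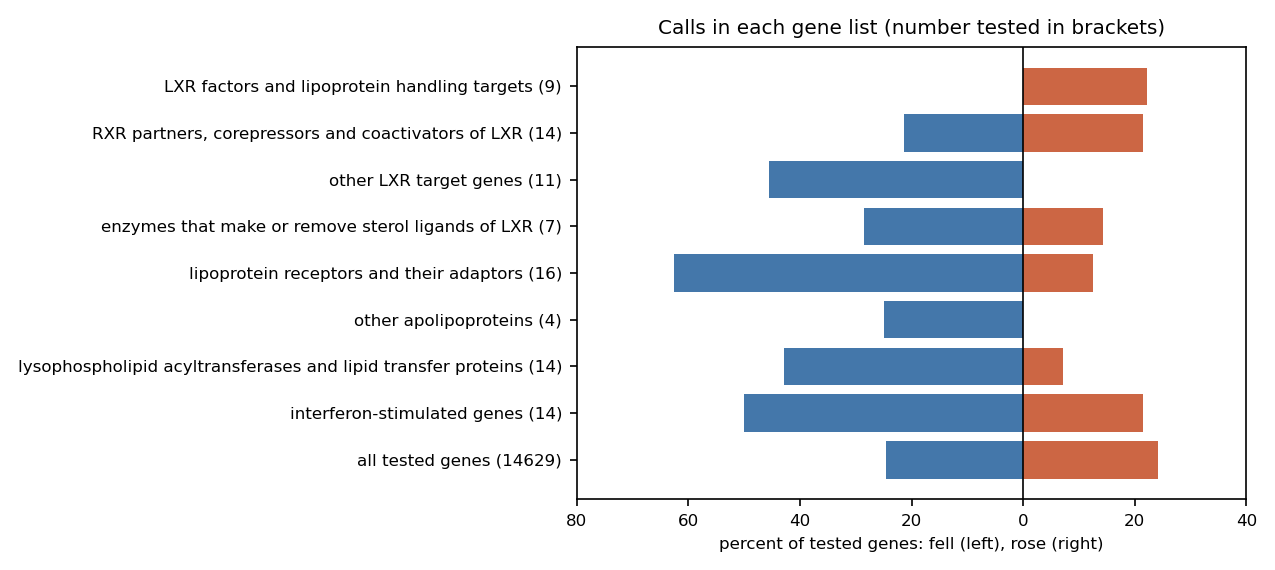
Percent of tested genes that fell (left) or rose (right) with ApoD overexpression in the 10 members and in 7 further lists, beside all 14629 tested genes. The 9 tested members show 22.2% higher and 0% lower, the lipoprotein receptors and adaptors 12.5% higher and 62.5% lower, and all tested genes 24.2% and 24.6%.

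The directions of the 9 tested genes depended on scaling in some cases. SCARB1 and APOL2 were above 0 under each scaling, and NR1H2, NR1H3, MYLIP, LPCAT3 and PLTP were below 0 under the 3 scalings drawn. APOL1 was above 0 with TMM and below 0 with the other scalings drawn, and APOC1 was below 0 except with the trend removed.

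**Figure D5:**
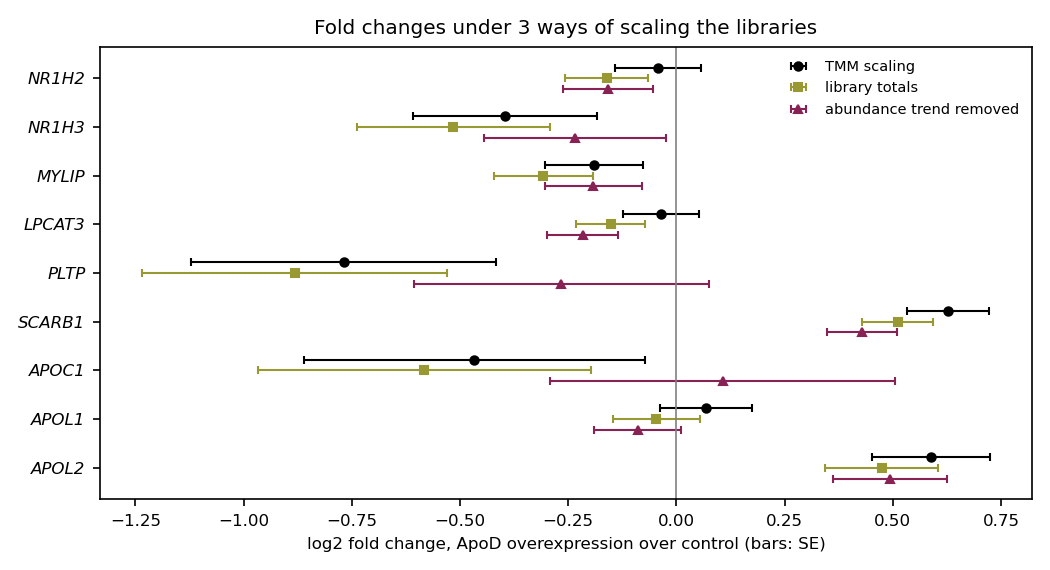
Log2 fold changes with SE of the 9 tested genes under TMM scaling, library totals, and offsets that remove the abundance trend of each library. SCARB1 (0.63, 0.51 and 0.43) and APOL2 (0.59, 0.47 and 0.49) stay to the right of 0, PLTP moves from −0.77 to −0.27 with the trend removed, and APOC1 from −0.47 to 0.11.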

How the data were processed

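RNA was sequenced in 3 control and 3 ApoD overexpression libraries of the 83 cell line. Per the labels' protocols, libraries were made from total RNA by SMARTER mRNA-Seq chemistry. Which aligner, counting program, strand setting and genome build served is not given in the sources used here, so no coordinates of counted genes are printed. The authors deposited whole-number read counts per gene symbol, per the file headers. The authors also deposited FPKM values: all 108650 above 0 equal the count divided by the column total and 1 length per gene, within a relative tolerance of 1e-06.

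Counts were tested with edgeR 4.0.16 (R 4.3.3; quasi-likelihood F test, TMM, filterByExpr with a minimum count of 10, two-sided, Benjamini-Hochberg over the 14629 genes kept). A gene could pass this filter through 1 group alone, as MERTK and CD36 did through the controls, and the list counts hold such genes. CPM are per 1000000 counts of the TMM-scaled library of kept genes, and each SE is the log2 fold change over the root of its F. Alternatives were DESeq2 1.42.0 (Wald test, or its size factors in edgeR), library totals, trend-removing offsets, no filter, a replicate block, leaving out each library, a test against a 1.5-fold change, and limma 3.58.1 on log2(FPKM + 1) or log2(FPKM + 0.1), with at least 1 FPKM in 3 libraries or unfiltered. The edgeR procedure was first tested on simulated data. Ratios of FPKM were compared by exact permutation.

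The members, the 13 further lists and the tests were chosen with earlier results of these data known. Beside the members, the rule named fixed reference genes and up to 3 called genes with the largest change per list; genes outside it, such as further markers, were named with their values in view, and not all genes under the rule are printed. Results on some genes are not reported here, though list counts hold them. Promoters are from RefSeq (GRCh38.p14), shared words from GENCODE 29 transcripts. Libraries of 1 group differed by a chi-square per degree of freedom of 11.6 to 39.5, so none was taken as a copy.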

Additional observations from a re-analysis of the deposited data

How the results depend on the processing

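The count of members called higher, 2, was the same under all alternatives except the test against a 1.5-fold change, which called 0. The count called lower, 0, became 1 with library totals (MYLIP), with the abundance trend removed (LPCAT3), on both filtered FPKM scales (MYLIP) and without control replicate 1 (NR1H3), so leaving out 1 library gave 0 to 1. Over all genes called higher or lower, the test against a 1.5-fold change called 545 higher and 1430 lower, and unfiltered log2(FPKM + 1) called 2317 higher. With the replicate number as a block, 2 members were called higher, 0 lower, 3088 genes higher and 3260 lower; same-numbered libraries did not deviate together (correlations −0.12 to −0.0057), so the numbers are not taken as pairs. The log2 difference in the APOC1 to APOE ratio was −0.15 with 0.1 FPKM added to each, and −0.36 to 1.08 with 1 library left out. Changes near 0 turned sign in NR1H2 without control replicate 3 (0.00051) or ApoD overexpression replicate 1 (0.058). So did those of LPCAT3 without control replicate 1 (0.030, the range with 1 library left out being −0.065 to 0.030) and of APOL3 without control replicate 2 (0.037, range −0.22 to 0.037). APOC1 moved from −0.47 with TMM to 0.11 with the trend removed. APOL1 turned with library totals (−0.046), the trend removed (−0.090), without control replicate 3 (−0.025, range to 0.16) and on FPKM (−0.039 with 1 added, with or without the filter, and −0.040 with 0.1 added). LRP8 turned with library totals (−0.0028), the trend removed (−0.037) and on FPKM (−0.0033 and −0.0036), and ABCA1 with the trend removed (0.069) and without control replicate 2 (0.044), control replicate 3 (0.14) or ApoD overexpression replicate 2 (0.17, range from −0.21). The receptors called lower numbered 10 and 5 against a 1.5-fold change; those called higher, 2, were 0 with library totals, the trend removed, the block and FPKM. Of the LXR partners 3 were called lower, 5 with library totals or FPKM and 6 with the trend removed. Other LXR targets called lower were 5, and 1 against a 1.5-fold change. Interferon-stimulated genes called lower were 7, and 1 against that change. Phospholipid remodelling genes called lower were 6, and 3 without control replicate 2 or 3 or ApoD overexpression replicate 3, and 0 against that change. The causes were not tested. PLTP has no value on filtered FPKM. Depth limits APOE, APOC1, PLTP, VLDLR and MERTK.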
